A study of Homo sapiens with 6 samples.

Results

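Integrin subunits that do not build the hemidesmosome were examined in PC3 prostate cancer cells with and without GCNT1 overexpression. A list of 10 gene symbols (ITGA2, ITGA3, ITGA5, ITGA10, ITGAV, ITGB1, ITGB3, ITGB5, ITGB6 and ITGB8) defined the set. Of these, 9 were found by Entrez identifier among the 12703 genes of the count table, 5 of them α and 4 of them β subunits, and ITGB6 was not analysed here. The comparison set 3 PC3 lines stably transduced with GCNT1 lentiviral particles (the GCNT1 lines) against 3 PC3 lines that received negative-control lentiviral particles (the control lines). All 6 lines therefore carry a lentivirus and share the PC3 parent, an established prostate cancer cell line, and each gave 1 RNA library. GCNT1 is the enzyme that branches core 1 O-glycans into core 2 O-glycans. Whether the lines of a group came from separate transductions is not stated in the sources used here, so the p-values measure the spread between these lines only.

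Integrins are receptors of the cell surface, each made of 1 α and 1 β subunit, that tie the extracellular matrix outside the cell to actin inside it. The pairing sets what is bound. Dimers of the β1 subunit (ITGB1) with α2 (ITGA2) or α10 (ITGA10) bind collagens, α3β1 (ITGA3) binds laminins, and α5β1 (ITGA5) binds fibronectin through its RGD motif. The αV subunit (ITGAV) pairs with β1, β3, β5, β6 or β8 to bind RGD-containing ligands such as vitronectin, fibronectin and the latent form of TGF-β. In normal prostate epithelium integrins hold basal cells to the basement membrane.

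The libraries held between 11392213 and 13825704 counted reads, so that 3 reads, the limit a count of 0 allows, correspond to 0.213 to 0.259 CPM (reads per 1000000 reads counted, here after TMM scaling). GCNT1 itself had 9, 13 and 8 reads in the control lines and 13, 16 and 35 reads in the GCNT1 lines, a log2 fold change of 0.98 (SE 0.37, adjusted p = 0.0362). Whether reads of the lentiviral transcript were counted on this gene is not given in the sources used here. These counts may therefore not measure the full overexpression. The paper checked GCNT1 in its overexpressing PC3 cells separately, by real-time PCR, ELISA and immunocytochemistry. The call from the counts rested on the third GCNT1 line, since the log2 fold change was 0.49 (adjusted p = 0.269) without it. It was also lost without the first control line (adjusted p = 0.092) or the third (adjusted p = 0.0944) and with DESeq2 (adjusted p = 0.0821). The epithelial keratins KRT8 (222 against 202 CPM) and KRT18 (253 against 222 CPM) were plentiful in both groups, while EPCAM was low (5.54 against 5.91 CPM). Of 9 markers of leukocytes, endothelium and fibroblasts 2 were analysed, the macrophage marker CD68 (89.8 against 84.4 CPM) and the endothelial marker PECAM1, which rose from 1.77 ± 0.292 to 4.43 ± 0.603 CPM (SD, n = 3). What part either has in the results below was not tested. In RNA from whole cultures, fewer cells of a kind and less RNA per cell cannot be told apart.

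The start regions of the subunits with the largest fold changes in each direction, ITGA2 and ITGA10, are shown because the results turn on these genes. Each runs from 250 bases before to 50 bases after the transcription start, 5′ to 3′ on the strand of the gene, from RefSeq on GRCh38.p14. ITGA2 lies at chr5:52989102-52989401 on the plus strand and ITGA10 at chr1:145910001-145910300 on the minus strand. Capitals mark matches, on either strand, to 5 motifs: the GC box GGGCGG, the CCAAT box CCAAT, the AP-1 motif TGANTCA, the TATA box TATAAA and the ZEB and SNAI E-box CACCTG.
ITGA2: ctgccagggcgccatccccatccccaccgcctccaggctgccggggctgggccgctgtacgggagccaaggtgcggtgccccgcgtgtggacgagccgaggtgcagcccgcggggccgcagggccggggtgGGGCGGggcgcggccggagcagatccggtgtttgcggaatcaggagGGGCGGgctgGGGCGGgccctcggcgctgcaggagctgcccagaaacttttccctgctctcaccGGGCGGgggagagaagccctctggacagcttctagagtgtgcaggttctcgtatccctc
ITGA10: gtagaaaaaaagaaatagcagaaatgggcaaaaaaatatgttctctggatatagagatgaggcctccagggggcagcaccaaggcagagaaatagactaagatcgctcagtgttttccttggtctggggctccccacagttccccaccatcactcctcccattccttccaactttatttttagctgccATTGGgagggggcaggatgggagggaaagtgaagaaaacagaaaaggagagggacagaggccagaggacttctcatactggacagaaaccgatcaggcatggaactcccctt
The ITGA2 region held 72.7% G and C, 27 CpG dinucleotides and 4 GC boxes, at positions -119, -73, -63 and -9 from the start. The ITGA10 region held 48.7% G and C, 2 CpG dinucleotides and 1 CCAAT box, which lies on the opposite strand at position -62. The median over 35116 promoter windows of the same length was 58.7% G and C. A start region was found for 7 of the 9 genes, all but ITGA3 and ITGB3. Of these 7, GC boxes were present in 5 (ITGA2, ITGA5, ITGB1, ITGB5 and ITGB8), against 45.0% of all windows, and CCAAT boxes in 2 (ITGA10 and ITGB8), against 34.6%. The AP-1 motif was present in ITGA5 alone, against 7.71% of all windows. The TATA box and the E-box had no match in the 7 regions, against 11.5% and 20.6% of all windows. A match describes letters only and is no record of binding.

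In the GCNT1 lines ITGA10 rose, ITGA2 and ITGB3 fell, and the remaining 6 subunits were not called. A gene was called when its adjusted p was under 0.05 and its absolute log2 fold change was at least 0.58, with edgeR's quasi-likelihood test and Benjamini-Hochberg adjustment over all 12703 genes. The 3 called integrins of 9 compare with 19.3% of all genes called in either direction, made up of 8.28% of all genes higher and 11.1% lower. Small differences were common in these libraries. An adjusted p under 0.05 alone was reached by 6 of the 9 integrins and by 57.6% of all genes, and the 2 groups of lines did not overlap in CPM for 6 of the 9 and for 62.5% of all genes. The median log2 fold change of the 9 was -0.21, and that of all genes was 0.00095.

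**Figure D1:**
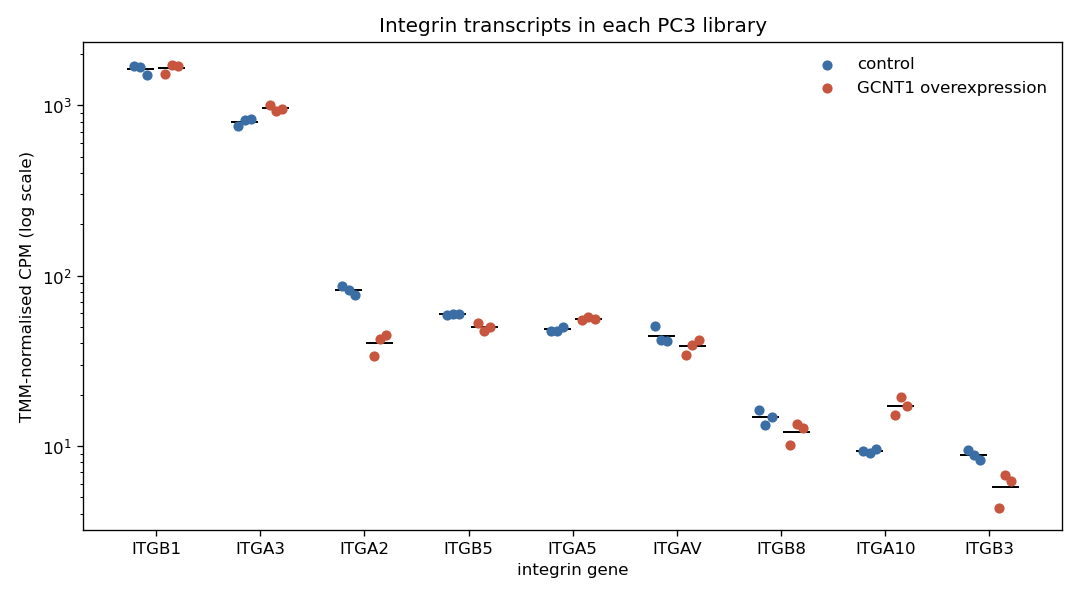
TMM-normalised CPM (log scale) of the 9 integrin genes in each library. Points are the 3 control lines (blue) and the 3 GCNT1 overexpression lines (red) and bars are group means. ITGA2 and ITGB3 are lower and ITGA10 is higher in every GCNT1 line, while the ITGB1, ITGAV and ITGB8 groups overlap.

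The 2 collagen receptor subunits of the set moved in opposite directions. ITGA2 (Entrez 3673), the α subunit of the main collagen I receptor of epithelial cells, had 1095, 1030 and 914 reads in the control lines and 388, 586 and 632 reads in the GCNT1 lines. After scaling this was 87.0, 82.7 and 77.3 CPM against 33.5, 42.7 and 44.8 CPM. Every GCNT1 line lay well below every control line, and the first GCNT1 line was the lowest of all. The mean fell from 82.3 ± 4.86 to 40.3 ± 5.99 CPM (SD, n = 3), a 2.03-fold decrease with a log2 fold change of -1.02 (SE 0.09, 95% interval -1.22 to -0.83, adjusted p = 6.84e-07). The call held with each library left out in turn, with log2 fold changes from -1.11 to -0.91.

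ITGA10 (Entrez 8515), the α subunit of a collagen II receptor known best from cartilage, was a low-abundance transcript with 118, 113 and 114 reads in the control lines and 175, 265 and 241 reads in the GCNT1 lines. The scaled values were 9.38, 9.08 and 9.64 CPM in the control lines and 15.1, 19.3 and 17.1 CPM in the GCNT1 lines. The control lines were close to each other and all GCNT1 lines lay above them, the first again being the lowest of its group. The mean rose from 9.36 ± 0.284 to 17.2 ± 2.09 CPM (SD, n = 3), 1.84-fold, with a log2 fold change of 0.88 (SE 0.11, 95% interval 0.65 to 1.11, adjusted p = 1.47e-05). Without each library in turn the log2 fold change stayed between 0.79 and 0.96 and the call was kept.

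The genes next to ITGA2 on chromosome 5 were also mostly lower in the GCNT1 lines. ITGA2 spans chr5:52989340-53094779 (hg38, plus strand). Of the 50 analysed genes nearest to it in gene order, 42 had a log2 fold change below 0, 23 (46.0%) were called lower and 3 were called higher, and their median log2 fold change was -0.53. ITGA2 was 0.49 below this median, and 13 of the 50 had a lower log2 fold change than ITGA2. Adjacent to it lies ITGA1, which encodes the α subunit of another collagen receptor and is not in the set. ITGA1 had 389, 355 and 280 reads in the control lines and 9, 18 and 19 reads in the GCNT1 lines, so that it was 23.6-fold lower (log2 fold change -4.56, SE 0.18, adjusted p = 2.22e-10). Its annotation overlaps PELO on the same strand, whose log2 fold change was -1.07 (adjusted p = 3.96e-07). The part of this neighbourhood in the fall of ITGA2 was not tested. ITGA10 lies at chr1:145891208-145910111 (minus strand), and the 50 analysed genes around it had a median log2 fold change of -0.08, which left a difference of 0.96.

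**Figure D2:**
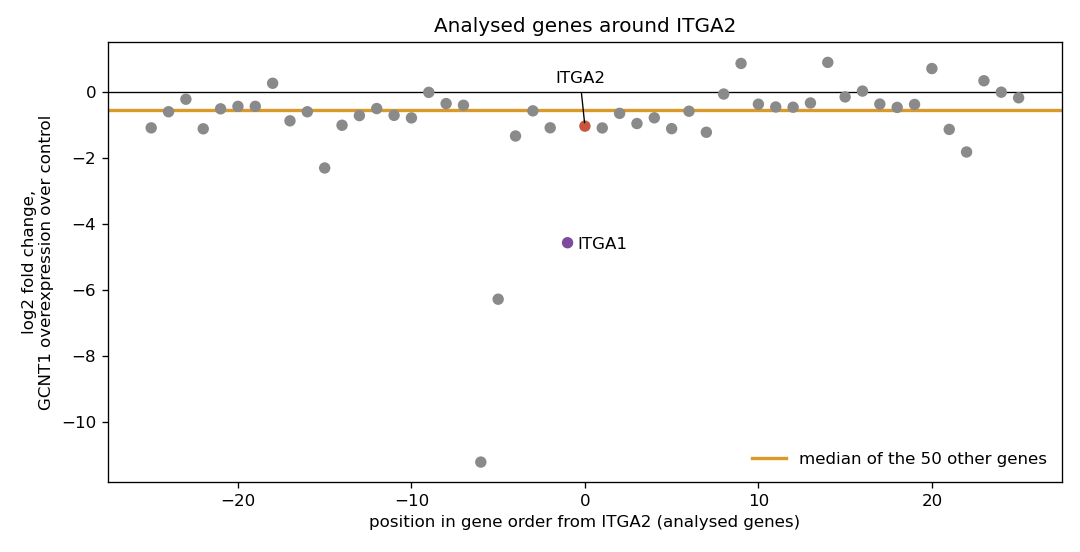
Log2 fold change (GCNT1 overexpression over control) of ITGA2 (red), ITGA1 (purple) and the other analysed genes around them (grey), by position in gene order from ITGA2. The orange line is the median of the 50 other genes, -0.53. Most points lie below 0, and the lowest grey point is a gene with no reads in any GCNT1 line, whose fitted value sets no size.

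The make-up of the collagen-binding α subunits is given as a description. Levels of different genes were compared per kilobase of annotated exon, as CPM divided by the length of the merged exons, and this set of 3 was chosen after its values were seen, so no test is given. ITGA2 made up 77.7% ± 0.0847 of the summed level of ITGA1, ITGA2 and ITGA10 in the control lines and 64.4% ± 2.14 in the GCNT1 lines (SD, n = 3). The share of ITGA10 was 10.6%, 10.8% and 12.2% in the control lines and 36.1%, 36.1% and 32.3% in the GCNT1 lines, and that of ITGA1 went from 11.1% ± 0.857 to 0.769% ± 0.125. The summed level itself was 13.4 ± 0.788 per kilobase in the control lines and 7.92 ± 1.05 in the GCNT1 lines, a ratio of 0.59. The rise of ITGA10 was thus smaller in level than the falls of ITGA1 and ITGA2. Within a library, where scaling cancels, the log2 ratio of ITGA10 to ITGA2 reads was -3.21, -3.19 and -3.00 in the control lines and -1.15, -1.14 and -1.39 in the GCNT1 lines.

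**Figure D3:**
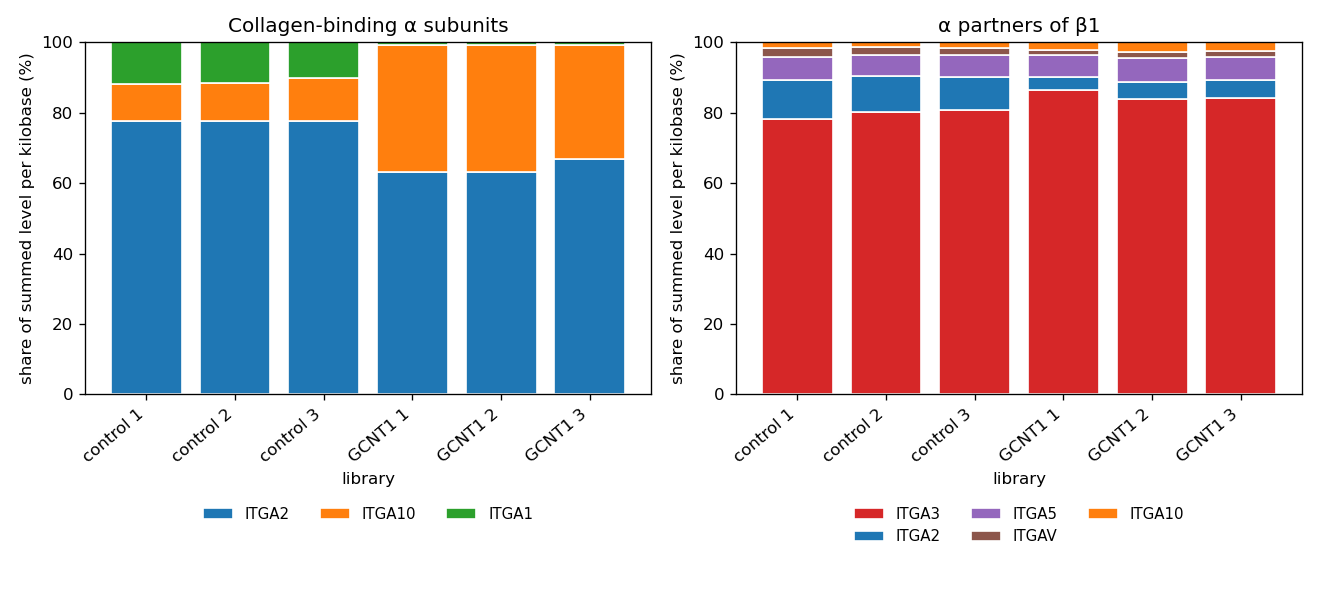
Share (%) of each α subunit in the summed level per kilobase of exon, as stacked bars for each of the 6 libraries. In the collagen-binding set (left) ITGA10 takes 32.3% to 36.1% in the GCNT1 lines and 10.6% to 12.2% in the control lines. Among the α partners of ITGB1 within the set (right), which leave out ITGA6, ITGA3 is the main share in every library.

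ITGA3 (Entrez 3675, chr17:50055968-50090481, plus strand), the laminin-binding α subunit, was the most abundant α subunit of the set. It had 759, 818 and 831 CPM in the control lines and 1002, 930 and 957 CPM in the GCNT1 lines. The groups did not overlap, and the first GCNT1 line was the highest. The mean went from 803 ± 38.5 to 963 ± 36.3 CPM (SD, n = 3), a log2 fold change of 0.26 (SE 0.05, 95% interval 0.16 to 0.37, adjusted p = 0.000388) that was under the fold threshold. The median of its 50 neighbours was 0.11.

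ITGA5 (Entrez 3678, chr12:54395261-54419266, minus strand), the α subunit of the main fibronectin receptor, had 47.4, 47.5 and 49.9 CPM in the control lines and 55.0, 56.8 and 55.9 CPM in the GCNT1 lines. These groups were tight and did not overlap, but the log2 fold change of 0.21 (SE 0.06, 95% interval 0.09 to 0.34, adjusted p = 0.00657) was also under the fold threshold. It lay close to the median of its 50 neighbours, 0.25.

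ITGAV (Entrez 3685, chr2:186590010-186680901, plus strand), the α subunit shared by the vitronectin and TGF-β-activating receptors, had 50.3, 41.9 and 41.2 CPM in the control lines and 34.2, 38.9 and 42.1 CPM in the GCNT1 lines. The third GCNT1 line lay among the control lines. The log2 fold change was -0.21 (SE 0.09, 95% interval -0.41 to -0.01, adjusted p = 0.0674). It was -0.10 without the first control line and -0.14 without the first GCNT1 line, and the adjusted p was 0.0392 without the third control line and 0.0393 without the third GCNT1 line. The 2 RGD-binding α subunits were also set against each other within a library. The log2 ratio of ITGA5 to ITGAV reads was 0.12 ± 0.187 in the control lines and 0.55 ± 0.138 in the GCNT1 lines (SD, n = 3), with no overlap and an exact two-sided permutation p of 0.1, the smallest that 3 lines against 3 can give, so that no such ratio or share can pass 0.05.

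ITGB1 (Entrez 3688, chr10:32887273-33005792, minus strand), the common β partner of all 5 α subunits here, was the most abundant gene of the set. It had 1703, 1669 and 1513 CPM in the control lines and 1524, 1736 and 1701 CPM in the GCNT1 lines. The groups overlapped. The log2 fold change was 0.02 (SE 0.06, adjusted p = 0.757), and its 95% interval from -0.10 to 0.15 bounds a change in either direction. The median log2 fold change of its 50 neighbours was 0.24.

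Against this level of ITGB1 the make-up of its α partners within the set was compared. Of their summed level per kilobase, ITGA2 took 11.1%, 10.1% and 9.32% in the control lines and 3.60%, 4.78% and 4.90% in the GCNT1 lines. ITGA3 went the other way, from 79.7% ± 1.33 to 84.9% ± 1.42 (SD, n = 3), and ITGA10 from 1.46% ± 0.0602 to 2.38% ± 0.342. ITGAV went from 2.25% ± 0.331 to 1.72% ± 0.198. Within the set these 4 shares did not overlap between groups (exact permutation p = 0.1 each, the smallest possible). That of ITGA5 did overlap (6.37% against 6.55%, exact permutation p = 0.4). In CPM, 62.5% of all genes did not overlap between groups, while the ITGAV groups did. The shares of a library add up to a whole, so a change in any of them moves the rest. These shares depend on which partners are counted. Over all measured β1 partners, ITGA6 included, ITGA3 took 44.9% ± 2.49 in the control lines and 57.5% ± 3.06 in the GCNT1 lines. ITGA6 took 42.4% ± 2.14 and 31.9% ± 2.45. As ITGA6 is also the partner of ITGB4, its share need not describe what pairs with β1. ITGA2 (5.72% against 2.98%), ITGA10 (0.823% against 1.61%) and ITGA5 (3.58% against 4.42%) then did not overlap (exact permutation p = 0.1 each), while ITGAV did (1.26% against 1.16%, exact permutation p = 0.4). The log2 ratio of ITGA2 to ITGB1 reads fell by 1.06 between the group means with no overlap. Those of ITGA3 and ITGA5 to ITGB1 overlapped, with exact permutation p = 0.2 and 0.3.

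Of the 3 β partners of αV other than ITGB1, ITGB3 fell and ITGB5 and ITGB8 were not called. ITGB3 (Entrez 3690, chr17:47253827-47313743, plus strand), the β subunit of the vitronectin receptor αVβ3, had 119, 110 and 97 reads in the control lines and 50, 92 and 88 reads in the GCNT1 lines. Scaled values were 9.46, 8.83 and 8.20 CPM against 4.32, 6.70 and 6.24 CPM. The GCNT1 lines all lay below the control lines, the first of them furthest. The mean fell from 8.83 ± 0.625 to 5.75 ± 1.26 CPM (SD, n = 3), a log2 fold change of -0.60 (SE 0.15, 95% interval -0.93 to -0.28, adjusted p = 0.00383) that was just past the fold threshold. The call was lost without the first GCNT1 line (log2 fold change -0.45, adjusted p = 0.00783) and without the first control line (-0.54, adjusted p = 0.0176), and also with library size alone (-0.55, adjusted p = 0.00789). Its 50 neighbours had a median of 0.13.

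ITGB5 (Entrez 3693, chr3:124761948-124901418, minus strand), the β subunit of the other vitronectin receptor, had 58.7, 59.2 and 59.5 CPM in the control lines and 52.4, 47.5 and 50.1 CPM in the GCNT1 lines. The groups did not overlap. The log2 fold change of -0.24 (SE 0.06, 95% interval -0.37 to -0.12, adjusted p = 0.0032) did not reach the fold threshold. ITGB8 (Entrez 3696, chr7:20330702-20415754, plus strand), whose product presents latent TGF-β with αV, had 16.3, 13.3 and 14.8 CPM in the control lines and 10.1, 13.4 and 12.8 CPM in the GCNT1 lines. The second GCNT1 line lay above the second control line, and the log2 fold change was -0.28 (SE 0.12, 95% interval -0.54 to -0.03, adjusted p = 0.0561). It was -0.18 without the first GCNT1 line, and the adjusted p was 0.0402 without the second control line and 0.0374 without the second GCNT1 line. The median log2 fold changes of the neighbours were 0.18 for ITGB5 and 0.24 for ITGB8.

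ITGB1 took most of the summed level of the αV partners, 90.8% ± 0.512 in the control lines and 92.4% ± 0.536 in the GCNT1 lines (SD, n = 3). The share of ITGB3 went from 1.05% ± 0.0257 to 0.681% ± 0.111, with no overlap (exact permutation p = 0.1), and neither did that of ITGB8 overlap, from 0.793% ± 0.0853 to 0.647% ± 0.0546 (exact permutation p = 0.1). That of ITGB5 overlapped, from 7.39% ± 0.482 to 6.27% ± 0.7 (exact permutation p = 0.2). With ITGB1 left aside the shares of ITGB3, ITGB5 and ITGB8 all overlapped between the groups, so that no shift among these 3 was seen beyond the spread of the lines. Relative to ITGAV, the log2 ratio of ITGB3 reads fell by 0.43 with no overlap, while those of ITGB5 (-0.03, exact permutation p = 1.0) and ITGB8 (-0.08, exact permutation p = 0.4) overlapped.

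**Figure D4:**
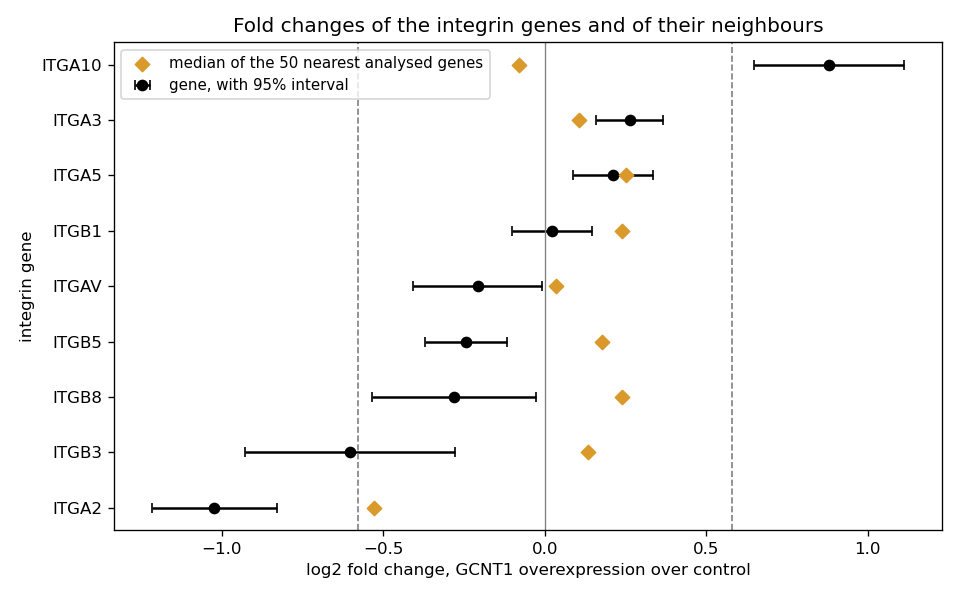
Log2 fold change of each integrin gene (GCNT1 overexpression over control, black, with 95% interval from the edgeR fit) and the median of its 50 nearest analysed genes (orange). Dashed lines mark the fold threshold of 0.58 in both directions. ITGA10 at 0.88 and ITGA2 at -1.02 have intervals wholly past it, and the interval of ITGB3 crosses it.

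By level per kilobase the control lines ordered the set as ITGB1 (112 ± 6.97), ITGA3 (81.9 ± 3.93), ITGA2 (10.4 ± 0.615), ITGB5 (9.08 ± 0.0637), ITGA5 (6.54 ± 0.192), ITGAV (2.30 ± 0.262), ITGA10 (1.50 ± 0.0455), ITGB3 (1.29 ± 0.0916) and ITGB8 (0.975 ± 0.1). This order was the same in all 3 control lines. In the GCNT1 lines ITGA2 (5.11 ± 0.758) ranked 5 in every line, below ITGB5 (7.68 ± 0.371) and ITGA5 (7.57 ± 0.124), which did not differ beyond their spread. ITGA10 (2.75 ± 0.334) stood above ITGAV (1.99 ± 0.205) in every GCNT1 line, and ITGB3 (0.842 ± 0.185) and ITGB8 (0.798 ± 0.115) did not differ beyond their spread. Part of this order depends on the length used. With the longest coding transcript in place of the merged exons, the control levels were 13.3 for ITGB5, 11.4 for ITGA5 and 10.5 for ITGA2, ITGB8 (1.65) stood above ITGB3 (1.49), and ITGAV (5.45) stayed above ITGA10 (3.35) in the GCNT1 lines.

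The first GCNT1 line was the lowest of its group for 7 of the 9 genes and the highest for the other 2, ITGA3 and ITGB5. This library was also the smallest, with 11392213 reads. Without it, ITGA2 kept a log2 fold change of -0.91 (adjusted p = 2.38e-09) and ITGA10 one of 0.96 (adjusted p = 4.71e-07). The libraries were made with a stranded kit, but whether the counting used strand is not stated in the sources used here. Opposite-strand lncRNA genes overlap 8 of the 9 integrins, all but ITGA3, and were not analysed here, so their reads cannot be told apart from those of the integrins if strand was not used. ITGB3 is also overlapped on its own strand by a protein-coding gene model.

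Of the 16 other integrin subunits 8 were analysed, of which 2 rose, 3 fell and 3 were not called, against 8.28% of all genes called higher and 11.1% lower, with a median log2 fold change of -0.33. The leukocyte integrin subunits ITGA4 and ITGB2 were called higher at very low counts. ITGA4 had 4, 7 and 6 reads in the control lines and 13, 27 and 24 in the GCNT1 lines (log2 fold change 1.79, SE 0.34, adjusted p = 0.000613). ITGB2 had 10, 4 and 9 reads against 22, 23 and 16 (log2 fold change 1.30, SE 0.35, adjusted p = 0.00621). Besides ITGA1, the hemidesmosomal ITGB4 fell from 575 ± 31.0 to 181 ± 7.75 CPM (SD, n = 3, log2 fold change -1.67), and its partner ITGA6 went from 517 to 365 CPM (-0.50, not called). ITGA7, a laminin receptor subunit of muscle, fell by 0.60 on the log2 scale (adjusted p = 0.00275), and its call was lost without the third control line, without the third GCNT1 line and with library size alone.

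The genes around the integrins were taken as 8 lists, which with the other subunits held 128 genes, 111 of them analysed. Of these 27 were called, 8 higher and 19 lower, which is 24.3% against 19.3% of all genes, and their median log2 fold change was -0.17. These lists were written with earlier results of the same libraries known, and the counts describe them without a test.

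Of 21 analysed matrix ligands 3 rose and 7 fell, against 8.28% and 11.1% of all genes, and the median log2 fold change of the 21 was -0.39. Fibronectin (FN1), the ligand of α5β1 and αV integrins, fell from 1247 ± 65.2 to 525 ± 48.4 CPM (SD, n = 3, log2 fold change -1.25, adjusted p = 3.46e-09). Fibrillin 2 (FBN2), a microfibril protein with an RGD motif, fell from 983 ± 68.3 to 480 ± 20.9 CPM (-1.04, adjusted p = 4.99e-09). The matricellular proteins CCN1 and CCN2, which bind αV integrins, rose. CCN1 went from 94.7 ± 8.13 to 381 ± 58.1 CPM (2.01, adjusted p = 2.44e-09) and CCN2 from 123 ± 5.92 to 330 ± 45.3 CPM (1.42, adjusted p = 1.48e-08).

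Of the 5 analysed genes of latent TGF-β, the cargo of αV integrins, 1 rose and 2 fell, against 8.28% and 11.1% of all genes, with a median log2 fold change of 0.13. LTBP1, which anchors latent TGF-β in the matrix, fell from 365 ± 12.9 to 163 ± 11.9 CPM (SD, n = 3, log2 fold change -1.16, adjusted p = 2.33e-09). LTBP4 (-0.59, adjusted p = 2.22e-06) lost its call without the third control line and with library size alone. TGFB3, a growth factor with an RGD-bearing propeptide, rose by 0.62 on the log2 scale (adjusted p = 0.000126), and its call was lost without the second GCNT1 line.

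For the genes that act on integrins inside the cell the counts are read against the 19.3% of all genes called and the 57.6% with an adjusted p under 0.05. Of 7 analysed integrin activators, which bind β tails or recruit talin, RASSF5 rose (log2 fold change 0.65, adjusted p = 4.41e-05). TLN2, the second talin, fell from 45.3 to 25.6 CPM (-0.83, adjusted p = 4.58e-07). The more abundant talin TLN1 went from 399 to 307 CPM (-0.38, adjusted p = 7.5e-06) and was not called. The median of the 7 was -0.14. None of the 6 inactivators was called, and their log2 fold changes spanned -0.49 to -0.07 (median -0.18), although 4 had an adjusted p under 0.05 by edgeR. By edgeR, limma-voom and DESeq2 alike, 0 of the 6 were called and 4 had an unadjusted p under 0.05. Of 24 focal adhesion adaptors 1 rose and 2 fell, with a median of -0.22. Zyxin (ZYX), which binds actin regulators at focal adhesions, fell from 960 ± 73.7 to 541 ± 24.1 CPM (SD, n = 3, log2 fold change -0.83, adjusted p = 5.7e-08). Of the 3 analysed tensins, which link integrin tails to actin, TNS3 was not called (log2 fold change -0.37) and the other two were called in opposite directions, TNS2 higher (0.65, adjusted p = 2.61e-06) and TNS1 lower (-0.58, adjusted p = 0.000588), the latter only narrowly and not without the second control line, without the third GCNT1 line or with library size alone. Of 17 signalling genes downstream of integrins SHC1, an adaptor to the RAS pathway, was called (-0.61, adjusted p = 1.44e-07), a call that was lost with library size alone, and the median was -0.04.

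In the membrane and traffic lists 3 genes were called, all lower, against 11.1% of all genes called lower. Of 9 membrane partners CD82, a tetraspanin that associates with β1 integrins, fell from 7.79 ± 0.81 to 2.72 ± 0.265 CPM (SD, n = 3, log2 fold change -1.50, adjusted p = 2.56e-06), while the median of the 9 was 0.13 and 8 of the 9 had an adjusted p under 0.05, against 57.6% of all genes. Of 14 analysed traffic genes SNX17, a sorting nexin that recycles β1 integrins, fell from 135 to 74.5 CPM (-0.86, adjusted p = 1.47e-07) and DAB2, a clathrin adaptor for integrins, from 84.1 to 49.5 CPM (-0.76, adjusted p = 5.77e-07), with a median of -0.04.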

How the data were processed

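RNA from 3 control and 3 GCNT1-overexpressing PC3 lines was sequenced with a stranded mRNA kit. The authors used Cutadapt for trimming, HISAT2 for alignment to hg38 and featureCounts for counting, and deposited raw read counts per gene, 1 column per library. The annotation, strand setting and low-count rule of the counting are not given in the sources used here. From these counts, edgeR 4.0.16 in R 4.3.3 gave TMM-scaled CPM and quasi-likelihood tests over all 12703 genes, with Benjamini-Hochberg adjustment. Called genes had an adjusted p under 0.05 and an absolute log2 fold change of at least 0.58. Alternatives were limma-voom 3.58.1 (the test of the study), DESeq2 1.42.0, other scalings and filters, a threshold test (glmTreat), a replicate block and each library left out. The gene calls of edgeR, limma-voom and DESeq2 were tested on simulated counts. Exon lengths came from GENCODE release 44, and gene order from RefSeq on GRCh38.p14. Shares and ratios were compared by exact two-sided permutation tests. Libraries of a group differed by more than counting noise, with chi-square per degree of freedom from 1.65 to 5.61. Count floors cover counting error only. Symbols were matched for 12661 genes. The members and lists were chosen with earlier results of these data known. All members, GCNT1, the analysed cell type markers and, from each list, the called genes (at most 4, by smallest p) are named. Genes next to ITGA2 enter as a median, and PELO as an overlapping gene. Outside this rule, ITGB2, ITGA6, TLN1 and TNS3 were added after their values were seen.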

Additional observations from a re-analysis of the deposited data

How the results depend on the processing

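Across the alternatives, the number of all genes called stayed between 1980 (at least 10 reads in every library, 12045 genes tested) and 2513 (library size alone), apart from 1392 under glmTreat, which tests against the fold threshold and also left 16 of the 27 genes of the integrin lists. Leaving out each library gave 2409 to 2511 called genes, 25 to 28 list genes and 2 to 3 of the 9 integrins. The share of calls that were higher was 42.8%, and 51.1% with library size alone, which moved the median log2 fold change of all genes to 0.06. ITGB3 also lost its call with library size alone (log2 fold change -0.55, adjusted p = 0.00789) and under glmTreat. Taken relative to their 50 nearest genes, a choice made after seeing the data, ITGA2 (-0.49) fell short of the fold threshold, and ITGB1 (-0.21) and ITGA5 (-0.038) changed sign. With each library left out, ITGB1 ranged from -0.028 (without control replicate 3) to 0.078 (without GCNT1_OE replicate 1) and was also negative without GCNT1_OE replicate 2 (-0.0078), and it was 0.08 with library size alone. In values centred within each group, the correlations of same-numbered lines were -0.273, -0.0024 and -0.109. Those of differently numbered lines ran from -0.2 to 0.263. They show no pairing by replicate number but, being centred over so few lines, cannot exclude one. A fit with the replicate block called 2423 genes, 27 list genes and 3 integrins, and changed no integrin call. With the longest coding transcript as length, the shares of collagen-binding subunits moved by -10.7 points for ITGA2, -16.0 for ITGA1 and 26.7 for ITGA10 between the groups, each in the same direction as with merged exons. Among the β1 partners of the set the difference became -3.12 points for ITGA2 (-5.75 with merged exons), 3.37 for ITGA3 (5.18), 0.557 for ITGA10 (0.921), -0.827 for ITGAV (-0.528) and 0.020 for ITGA5 (0.176), and among the αV partners 0.835 for ITGB1 (1.63), -0.15 for ITGB3 (-0.369), -0.596 for ITGB5 (-1.11) and -0.0893 for ITGB8 (-0.146). SHC1, TNS1, LTBP4 and ITGA7 lost their calls with library size alone. At these depths a change in genes with few reads, such as GCNT1, ITGA4 and ITGB2, was measured with an SE of 0.34 to 0.37.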
